A study of Mus musculus with 6 samples.

Results

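Merkel cells are touch-sensing cells of the epidermis whose surface carries stout, actin-filled microvilli. Microvilli and the stereocilia of inner ear hair cells are built alike: bundling proteins cross-link parallel actin filaments, linkers of the ezrin family tie the bundle to the membrane, and in hair cells a group of Usher syndrome proteins joins neighbouring stereocilia by fine tip and side links. Merkel cells and hair cells also share the transcription factors Atoh1 and Pou4f3. The genes described here are 10 of the 54532 in the count table, taken by gene name as known parts of such bundles: the linker Ezr, the bundlers Avil, Vil1, Espn, Fscn1 and Fscn2, and the stereocilia genes Myo7a, Cdh23, Pcdh15 and Ush1c.

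The samples were 6 Smart-seq2 libraries (full-length cDNA from little RNA) of back skin epidermis from C57BL/6 mice of both sexes aged 4 weeks, without treatment or engineered alleles. The NCAM-enriched group (3 libraries) held cells drawn out by beads against polysialylated NCAM, a surface protein of Merkel cells, and then sorted as NCAM-positive and DAPI-negative. The bulk skin group (3 libraries) held DAPI-negative epidermal cells without NCAM selection, so Merkel cells were not removed from it. Each library came from 500 sorted events, and the sources used here do not say that replicates came from separate animals, so p-values measure only the spread between these libraries.

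Libraries held 1343190 to 4481830 counts, so that 1 count was worth 0.216 to 0.773 normalised CPM (a read's share after scaling libraries to a common size). All 10 markers of Merkel cells had counts in both groups, and their summed level was 482 to 1674 CPM in the NCAM-enriched libraries against 133 to 186 CPM in bulk skin. Markers of other cells differed too. Suprabasal keratinocyte markers summed to 12540 to 27440 CPM against 972 to 1303, T and NK cell markers to 3.09 to 44.5 against 3261 to 3478, and Langerhans and dendritic cell markers to 25.5 to 353 against 10420 to 18210. The NCAM-enriched libraries stood apart from each other. Library 2 held 32930 CPM of fibroblast markers (361 and 41.4 in libraries 1 and 3), of which Col1a1 alone had 15381 reads against 228 and 39. Bulk skin was rich in fibroblast markers too, at 10320 to 18170 CPM, so libraries 1 and 3 lay far below it. Library 3 had the lowest Merkel cell sum of its group and 30320 CPM of basal keratinocyte markers. These summed to 9550 and 6879 CPM in libraries 1 and 2 and to 11590 to 15980 CPM in bulk skin. Endothelial markers summed to 10.8 to 14.5 CPM against 23.3 to 36.7, and glial and nerve markers to 12.4 to 82.9 against 38.9 to 80.3. In such pooled libraries, fewer cells of a type and less RNA per cell cannot be told apart.

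**Figure D1:**
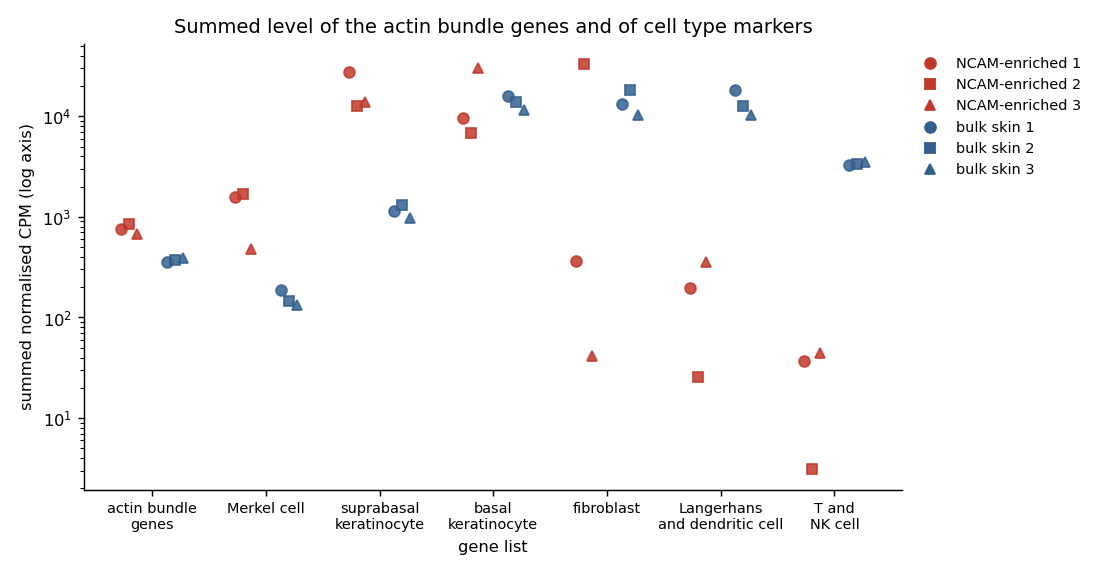
Summed normalised CPM (log axis) of the 10 actin bundle genes and of 6 lists of cell type markers, with 1 point per library (red NCAM-enriched, blue bulk skin). The actin bundle genes summed to 678.5 to 849.9 CPM in the NCAM-enriched libraries and 356.7 to 391.2 CPM in bulk skin. Immune markers lay far lower in the NCAM-enriched group. Fibroblast markers were high in NCAM-enriched library 2 and in bulk skin, and low in NCAM-enriched libraries 1 and 3.

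The comparison asked whether cells selected for NCAM held more RNA of these genes than unselected epidermis. Ezr, Avil and Espn were higher in every NCAM-enriched library than in any bulk skin library, but none of the 10 genes passed the test over all genes. The genes Cdh23, Myo7a, Pcdh15 and Ush1c were sparse. Cdh23 and Myo7a had few reads and overlapping groups, Pcdh15 had 3 reads in the NCAM-enriched group and Ush1c had 0 in every library. Of the bundlers, Vil1 and Fscn2 were sparse too, with 3 and 0 reads in the NCAM-enriched group, while Espn had 350 there. The filter on low counts kept 6 of the 10 (Ezr, Avil, Espn, Fscn1, Cdh23 and Myo7a), of which edgeR's quasi-likelihood test called 0 (a call being an adjusted p of 0.05 or less). At an unadjusted p under 0.05 there were 2 (Ezr and Espn). Of all 13157 genes tested, edgeR called 1.04% higher after NCAM selection and 1.55% lower, together 2.59%. Groups without overlap were seen for 3 of the 6, each higher in the NCAM-enriched group, while 11.1% of all tested genes lay wholly higher and 19.3% wholly lower. The median log2 fold change was 0.93 over the 6 and -0.07 over all tested genes.

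**Figure D2:**
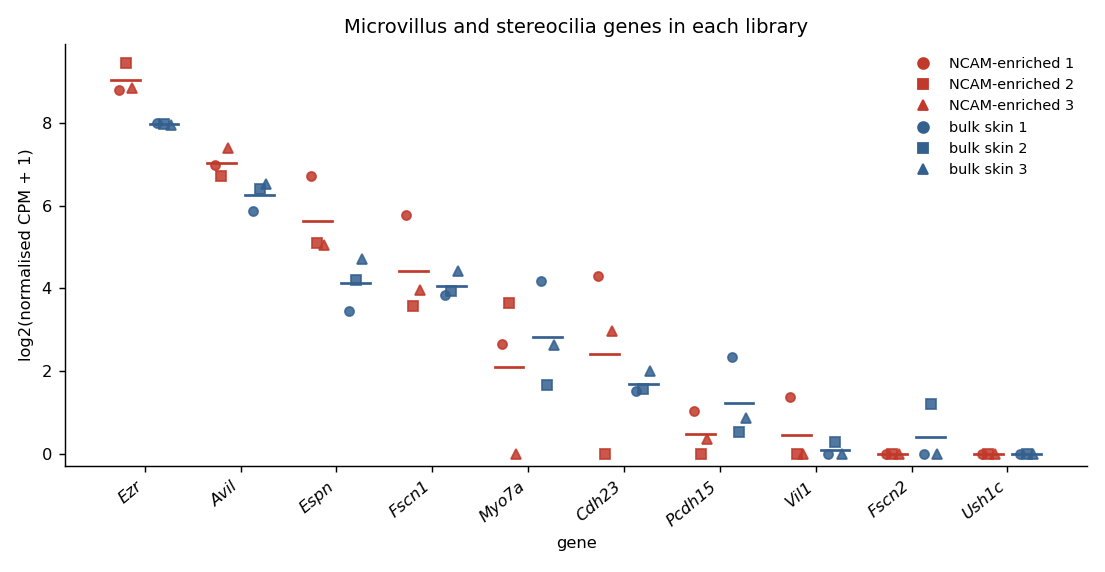
Level of each of the 10 genes in each library as log2(normalised CPM + 1), with a bar at the group mean on that scale (red NCAM-enriched, blue bulk skin). Ezr, Avil and Espn show red points above all blue points, Fscn1, Cdh23 and Myo7a overlap, and Ush1c lies at 0 throughout.

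Ezr encodes ezrin, the linker that ties actin filaments to the plasma membrane and the best known marker protein of microvilli. It lies on chromosome 17 (6738041 to 6782784, minus strand, GRCm38). The NCAM-enriched libraries had 446, 690 and 457 CPM (839, 893 and 1611 reads) and the bulk skin libraries 253, 249.9 and 246 CPM (816, 1156 and 897 reads). The bulk skin libraries were nearly equal, with a mean of 249.7 ± 3.72 CPM (SD, n = 3), and all NCAM-enriched libraries lay above them, at 531 ± 138 CPM. The log2 fold change was 1.09 ± 0.35 (SE; 95% interval 0.30 to 1.88), a 2.13-fold difference in level, and it was not called by edgeR (adjusted p = 0.127). DESeq2 on the same filtered genes called it (adjusted p = 0.0343) but DESeq2 without that filter did not (adjusted p = 0.0697). With the filter DESeq2 called 5.02% of all tested genes higher and 7.05% lower. Over the 14 alternatives run the adjusted p ran from 0.0343 to 0.353. NCAM-enriched library 2, the library rich in fibroblast markers, held the highest level. Without it the log2 fold change was 0.84 (adjusted p = 0.130).

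Ezr was by far the most abundant of the 10 per length as well. Divided by exonic length, its level was 161 ± 41.9 RPKM (CPM per kilobase; SD, n = 3) after NCAM selection, above 98.0% of tested genes, and 75.9 ± 1.13 RPKM in unselected skin, above 94.3%. It took 59.1 to 81.2% of the summed CPM of the 10 genes in the NCAM-enriched libraries and 62.9 to 71.0% in bulk skin, so the sum over the 10 genes is largely a measure of Ezr. Ezr had the smallest p of the tested members, and the 5 genes whose log2(CPM + 1) over the 6 libraries was most like it were Ddit4 (Pearson's r = 0.999), Dock1 (0.997), Srrt (0.996), AC122481.1 (0.996) and Kdm5b (0.995). These are the extremes of 13157 correlations over 6 points that share the same division into groups, and are given as a description. Of the 5, edgeR called Ddit4, a stress-induced inhibitor of mTOR signalling (107 against 11.8 CPM, adjusted p = 0.0315).

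Avil encodes advillin, a villin-related protein that bundles, caps and severs actin and is known from sensory neurons, tuft cells and Merkel cells. The gene lies on chromosome 10 (127000709 to 127020994, plus strand) and overlaps Tsfm, on the other strand, in 4.86% of its exonic bases, which these unstranded libraries cannot separate. It had 125, 104 and 168 CPM in the NCAM-enriched libraries and 57.1, 83.2 and 91.0 CPM in bulk skin. The highest bulk skin library thus lay close under the lowest NCAM-enriched library, and the groups did not overlap. The means were 132 ± 32.3 and 77.1 ± 17.8 CPM, and the log2 fold change was 0.78 ± 0.39 (SE; 95% interval -0.10 to 1.66; edgeR adjusted p = 0.325). NCAM-enriched library 3, which had the lowest sum of Merkel cell markers, had the highest Avil level. Per length Avil was second to Ezr in every library, at 30.7 to 49.4 RPKM after NCAM selection and 16.8 to 26.8 without it.

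Vil1, the closest relative of Avil in this group and the classic bundler of the intestinal brush border, was nearly absent. It had 3 reads in NCAM-enriched library 1, 1 read in bulk skin library 2 and 0 in the other libraries, a pooled ratio of 5.15 with a 95% exact counting interval of 0.413 to 270.2 that covers counting error only. In NCAM-enriched library 1, the only one of that group with a Vil1 read, Avil was 82.2 times as high per length. Vil1 (chromosome 1, 74409376 to 74435559, plus strand) did not pass the count filter and overlaps Usp37 in 1.38% of its exonic bases. Avil and Vil1 are also known from tuft cells, chemosensory cells of other epithelia, and the 3 tuft cell markers summed to 138 to 271 CPM in the NCAM-enriched libraries and 107 to 125 CPM in bulk skin. Most of this was Pou2f3, a transcription factor also known from suprabasal keratinocytes, at 235, 13.1 and 268 against 85.1, 62.7 and 74.6 CPM, and Dclk1, at 31.4, 125 and 1.70 against 39.7, 47.1 and 32.6 CPM. The channel Trpm5 had 10 reads in NCAM-enriched library 1, 4 in bulk skin library 2 and 0 elsewhere. The groups thus did not overlap in the sum but did for each marker, and edgeR called neither of the 2 tested. The part of tuft cells in the Avil levels was not tested.

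Espn encodes espin, the bundler that sets the length and stiffness of hair cell stereocilia and is also found in Merkel cell microvilli. It lies on chromosome 4 (152120331 to 152152371, minus strand) and shares no exonic base with another gene. The NCAM-enriched libraries had 103, 33.2 and 32.1 CPM (194, 43 and 113 reads) and the bulk skin libraries 9.94, 17.5 and 24.9 CPM (32, 81 and 91 reads). NCAM-enriched library 1 was 3.21 times as high as the lowest of its group, and the other NCAM-enriched libraries lay not far above bulk skin library 3. The means were 56.1 ± 40.7 and 17.5 ± 7.51 CPM, with a log2 fold change of 1.68 ± 0.71 (SE; 95% interval 0.07 to 3.30). The unadjusted p was 0.0431. By edgeR the adjusted p was 0.244, and the alternatives gave 0.105 to 0.554. Without NCAM-enriched library 1 the log2 fold change was 0.89 (adjusted p = 0.554). Among tested genes the level per length stood at the percentile 50.0 after NCAM selection and 17.8 in unselected skin.

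RefSeq (GRCm38.p6) gives Espn 3 transcription starts, and gene-level counts do not say which was used. The 250 bases before each start were searched for the E-boxes CAGCTG and CAGATG, sites of the class bound by Atoh1 and other basic helix-loop-helix factors, on both strands. CAGCTG reads the same on both strands and was counted once, and no matches overlapped. Of 13 starts of the 10 genes, 2 held such a motif, both of Espn, against 25.5% of the 32851 promoters in the table (13.0% for CAGCTG and 14.4% for CAGATG). The upstream start held CAGCTG beginning 201 bases before it, the downstream start held it 126 and 78 bases before, and the middle start held neither motif. Both are shown with the motif in capitals, 5′ to 3′ on the strand of the gene, beside the promoters of Avil and Ezr, the other members whose groups did not overlap, which held neither motif. A match is a description of the sequence and no evidence of binding.
Espn, upstream start (chr4:152152390-152152639, minus strand): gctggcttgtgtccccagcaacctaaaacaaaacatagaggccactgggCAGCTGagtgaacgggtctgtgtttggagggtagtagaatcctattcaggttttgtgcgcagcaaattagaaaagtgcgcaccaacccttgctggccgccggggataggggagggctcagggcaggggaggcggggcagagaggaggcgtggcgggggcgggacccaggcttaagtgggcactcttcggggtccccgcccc
Espn, downstream start (chr4:152128926-152129175, minus strand): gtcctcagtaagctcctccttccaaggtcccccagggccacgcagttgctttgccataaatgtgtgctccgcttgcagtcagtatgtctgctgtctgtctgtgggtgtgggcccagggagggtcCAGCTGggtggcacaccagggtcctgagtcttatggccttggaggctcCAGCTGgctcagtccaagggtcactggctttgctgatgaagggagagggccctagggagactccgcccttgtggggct
Avil (chr10:127000459-127000708, plus strand): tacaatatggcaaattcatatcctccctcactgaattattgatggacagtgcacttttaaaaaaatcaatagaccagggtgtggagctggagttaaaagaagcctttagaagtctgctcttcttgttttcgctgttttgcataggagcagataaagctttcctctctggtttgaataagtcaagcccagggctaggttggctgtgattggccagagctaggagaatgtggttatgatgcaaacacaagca
Ezr (chr17:6782781-6783030, minus strand): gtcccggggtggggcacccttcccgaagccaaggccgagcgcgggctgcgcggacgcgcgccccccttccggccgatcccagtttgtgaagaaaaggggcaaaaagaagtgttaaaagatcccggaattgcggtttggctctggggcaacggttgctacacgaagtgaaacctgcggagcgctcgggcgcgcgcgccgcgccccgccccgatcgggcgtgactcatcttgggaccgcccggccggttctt
The stretches also differed in base composition, with 61.6% G and C at the upstream Espn start, 60.8% at its downstream start, 67.2% before Ezr and 42.0% before Avil.

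Fscn1 encodes fascin, a bundler of filopodia and of dendritic cell processes, and lies on chromosome 5 (142960343 to 142973185, plus strand). It had 53.7, 10.8 and 14.5 CPM in the NCAM-enriched libraries and 13.4, 14.3 and 20.3 CPM in bulk skin. NCAM-enriched library 1 was the highest and library 2 the lowest of all 6, so the groups overlapped. The log2 fold change was 0.72 ± 0.86 (SE; 95% interval -1.22 to 2.66; edgeR adjusted p = 0.719), and without NCAM-enriched library 1 it was -0.34. Langerhans and dendritic cell markers summed to 25.5 to 353 CPM in the NCAM-enriched libraries and 10420 to 18210 CPM in bulk skin. Their part in the Fscn1 level was not tested. Ccr7, which marks migratory dendritic cells and some T cells, had 0 reads in the NCAM-enriched group and 15, 31 and 9 in bulk skin.

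Fscn2, the fascin of photoreceptors and hair cell stereocilia (chromosome 11, 120361534 to 120368168, plus strand), was counted in a single library, with 6 reads in bulk skin library 2. The 0 reads in the NCAM-enriched group allow a level of up to 0.448 CPM (3 counts over the group). Of these paralogues, Fscn1 thus held nearly all reads.

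**Figure D3:**
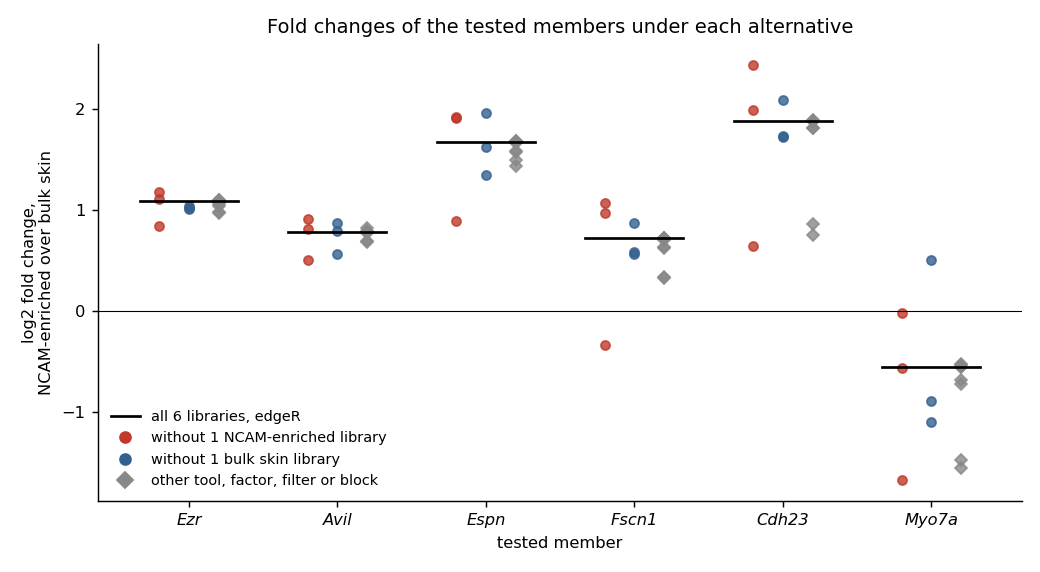
Log2 fold change of the 6 tested genes, NCAM-enriched over bulk skin, in the comparison of all libraries (black bar), without each single library (red and blue circles) and with other tools, factors, filters or a replicate block (grey diamonds). Ezr, Avil, Espn and Cdh23 lie above 0 in every fit, while Fscn1 falls to -0.34 without NCAM-enriched library 1 and Myo7a rises to 0.51 without bulk skin library 1.

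The genes of tip links and of their anchors made up the sparse part of the group. Cdh23 and Pcdh15 encode the cadherins that together form the tip link of hair cells. Cdh23 (chromosome 10, 60302748 to 60696490, minus strand) had 35, 0 and 24 reads in the NCAM-enriched libraries and 6, 9 and 11 in bulk skin, or 18.6, 0 and 6.81 against 1.86, 1.95 and 3.02 CPM. NCAM-enriched libraries 1 and 3 were above all bulk skin libraries and library 2 had no read, although 1 read there would have been 0.773 CPM. The log2 fold change was 1.89 ± 1.46 (SE; 95% interval -1.44 to 5.21; edgeR adjusted p = 0.553). It was 0.65 without NCAM-enriched library 1 and 0.75 with limma-voom. Its partner Pcdh15 (chromosome 10, 73099342 to 74649737, plus strand) had 2, 0 and 1 reads against 13, 2 and 3. The pooled ratio of Pcdh15 was 0.286 (95% exact counting interval 0.0540 to 0.979, for counting error only), and 13 of its 18 bulk skin reads came from a single library. It did not pass the count filter.

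Myo7a encodes the myosin that anchors tip links at their upper end, and Ush1c encodes harmonin, its scaffold. Myo7a (chromosome 7, 98051060 to 98119524, minus strand) had 5.31, 11.6 and 0 CPM in the NCAM-enriched libraries and 17.1, 2.16 and 5.21 CPM in bulk skin. The groups overlapped widely, with the highest level in bulk skin library 1 and no read in NCAM-enriched library 3. The log2 fold change was -0.56 ± 1.57 (SE; 95% interval -4.12 to 2.999; edgeR adjusted p = 0.896) and was 0.51 without bulk skin library 1. Myo7a is also expressed by melanocytes, whose markers summed to 1.70 to 68.8 CPM in the NCAM-enriched libraries, with the highest sum in library 2, where Myo7a was highest in that group. Of the 68.8 CPM there, 64.1 were of Dct, and Pmel and Mlana had 0 reads. In bulk skin they summed to 0.432 to 3.56 CPM, and to 0.621 CPM in library 1, which had the highest Myo7a of all 6. The part of melanocytes in these levels was not tested. Ush1c (chromosome 7, 46195350 to 46238503, minus strand) had 0 reads in all 6 libraries, which allows up to 0.448 CPM in the NCAM-enriched group and 0.261 CPM in bulk skin.

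Ranked by mean level per length in the NCAM-enriched group, Ezr (161 RPKM) came before Avil (39.0), Fscn1 (8.74), Espn (6.78), Myo7a (0.658) and Cdh23 (0.500). The libraries of Ezr and Avil did not overlap, nor did those of Avil and Fscn1, whereas those of Fscn1 and Espn did, as did those of Myo7a and Cdh23. In bulk skin the order per length was the same, but Fscn1 (4.43 to 6.74 RPKM) lay wholly above Espn (1.20 to 3.02). The lengths count all annotated exons, 8272 bases for Espn and 3012 for Fscn1, whichever transcripts were present. Without division by length, Espn lay above Fscn1 in every NCAM-enriched library (103, 33.2 and 32.1 against 53.7, 10.8 and 14.5 CPM). In bulk skin their CPM overlapped (9.94, 17.5 and 24.9 against 13.4, 14.3 and 20.3). The mean CPM of Cdh23 also lay above that of Myo7a after NCAM selection. The level of Fscn1 per length was 2.23 to 3.69 times that of Espn in the bulk skin libraries and 0.894 to 1.43 times in the NCAM-enriched libraries, so the balance of these bundlers did not overlap between the groups. This ratio was computed within each library and does not depend on the scaling between libraries. Its size, like the order of Fscn1 and Espn, depends on the exonic lengths used, but its separation between the groups does not. It was chosen after the values had been seen and was not tested.

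A wider list of 54 genes of microvilli and stereocilia placed these members in their pathway. Of these, 46 had reads and 30 were tested, of which 0 were called higher, 1 was called lower and 29 were not called by edgeR. With groups that did not overlap, 7 genes lay higher after NCAM selection (Eps8l2, Slk, Myo1c, Myo1e, Myo6, Myo10 and Elmod1). Another 5 lay lower (Lcp1, Twf2, Scin, Msn and Slc9a3r1). Over all tested genes 11.1% lay wholly higher and 19.3% wholly lower, and edgeR called 1.04% higher and 1.55% lower. The share of 5 in 30 lower is near that background. The share of 7 in 30 higher is above it, which was not tested, and the lists were chosen with earlier results of these data known. Over the 30 genes the median log2 fold change was 0.28. The gene called lower was Lcp1, which encodes the plastin of leukocytes, an actin bundler. It had 1574, 1887 and 1493 reads in bulk skin and 7, 0 and 57 after NCAM selection, and fell by 5.90 ± 0.98 on the log2 scale (SE; edgeR adjusted p = 0.0225). The T and NK cell markers, of which Cd3d had 0 reads in the NCAM-enriched group, and the Langerhans cell markers fell between the same libraries, and their part in the fall of Lcp1 was not tested. The call was lost when NCAM-enriched library 1 was left out (adjusted p = 0.0625), or bulk skin library 1, 2 or 3 (0.156, 0.133 and 0.140), with log2 fold changes of -5.60, -5.85, -5.98 and -5.98 in that order, near that of all libraries. Without NCAM-enriched library 3 Lcp1 was called at -7.73.

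Other genes that bundle, cap or cut actin filaments did not pass the test: of 12 tested, 7 lay above 0 and 5 below, with Lcp1 the only call. Gsn, the filament-severing gelsolin, was the most abundant per length (595 against 434 RPKM, log2 fold change 0.46, edgeR adjusted p = 0.680), and Capg, a capping protein, had 169 against 231 RPKM. Larger differences in both directions were named after their values were seen. The capping protein Eps8 itself had 89, 3 and 15 reads against 129, 164 and 149, with the highest CPM of all 6 libraries in NCAM-enriched library 1 (log2 fold change -1.11, edgeR adjusted p = 0.637), and without that library the log2 fold change was -3.51 (adjusted p = 0.0837). Twf2, a capping protein of the twinfilin family, had 26, 3 and 26 reads against 149, 193 and 103 (log2 fold change -2.29 ± 0.84 SE, edgeR adjusted p = 0.183, DESeq2 0.0334). The log2 fold change of Twf2 was -2.94 without NCAM-enriched library 1 and -1.90 without NCAM-enriched library 2. Scin, a relative of gelsolin, also lay wholly lower (log2 fold change -0.42). The relatives of Eps8 lay the other way. Eps8l2, a hair cell capping protein, had 124, 155 and 286 reads against 96, 95 and 56 (log2 fold change 2.02 ± 0.51 SE, edgeR adjusted p = 0.0710, DESeq2 0.00372), but it overlaps B230206H07Rik in 32.2% of its exonic bases. Eps8l1 had 425, 7 and 1284 reads against 12, 75 and 39, so that NCAM-enriched library 2 lay among the bulk skin libraries (edgeR adjusted p = 0.0891). Suprabasal keratinocyte markers summed higher in the same group. Of these 6 markers edgeR called 4 higher, while the groups overlapped for Krt1 and Lor. Lor had 1327, 2.32 and 747 CPM against 8.07, 3.89 and 10.1. The part of suprabasal keratinocytes in the Eps8l2 and Eps8l1 levels was not tested. The log2 fold change of Eps8l1 was 4.27, and it was 4.82 and called without NCAM-enriched library 2 (adjusted p = 0.00259), and 3.45 without library 3. Of the untested bundlers, Pls1, the plastin of intestinal microvilli, had 3, 0 and 0 reads against 20, 1 and 17.

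The sister linkers of ezrin are radixin and moesin. Rdx, the radixin of hair cell stereocilia, had 54.0 against 51.6 RPKM (log2 fold change 0.06 ± 0.38 SE, edgeR adjusted p = 0.954), a direction that turned under 6 of the 14 alternatives. Msn, the moesin of leukocytes and endothelium, had 22.8 against 64.4 RPKM and lay lower in every NCAM-enriched library (log2 fold change -1.50 ± 0.43, edgeR adjusted p = 0.0917, DESeq2 0.0244). Whether their differences depart from that of Ezr was not tested. Slk, a kinase that phosphorylates these linkers and was named after its value was seen, was higher in every NCAM-enriched library (34.4 against 14.9 RPKM, adjusted p = 0.133). Of 6 tested linker genes 0 were called, 2 lay above 0 and 4 below.

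The 6 tested unconventional myosins of the wider list all lay above 0, with 0 called and a median log2 fold change of 1.25. Myo7a, a stereocilia myosin counted among the members, was also tested and lay below 0, at -0.56. Of all 13157 tested genes 6269 lay above 0. Each of the 6 lay above 0 in every alternative in which it was tested. The other 3 listed myosins were not tested: Myo1a had 5, 0 and 0 reads against 0, 4 and 6, Myo3b 0, 1 and 0 against 0, 6 and 0, and Myo3a 7 in NCAM-enriched library 3 only. In edgeR without the count filter Myo1a lay at -0.035 and Myo3b at -1.09. The groups did not overlap for 4 of them: Myo1c, Myo1e, Myo6 and Myo10, each higher after NCAM selection, as were 11.1% of all tested genes. Myo1c, the adaptation motor of hair cells, had 29.6 against 19.8 RPKM (log2 fold change 0.59, edgeR adjusted p = 0.393). Myo1e had 32.2 against 15.2 RPKM (1.09, adjusted p = 0.147). Myo6, the minus-end motor at the base of stereocilia, had 11.0 against 4.28 RPKM (1.35, adjusted p = 0.138), and Myo10, a motor of filopodia, had 9.87 against 3.18 RPKM (1.63, adjusted p = 0.215). Without NCAM-enriched library 2, the library rich in fibroblast markers, Myo10 was at 0.72. Myo6 and Myo10 were named after their values were seen.

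**Figure D4:**
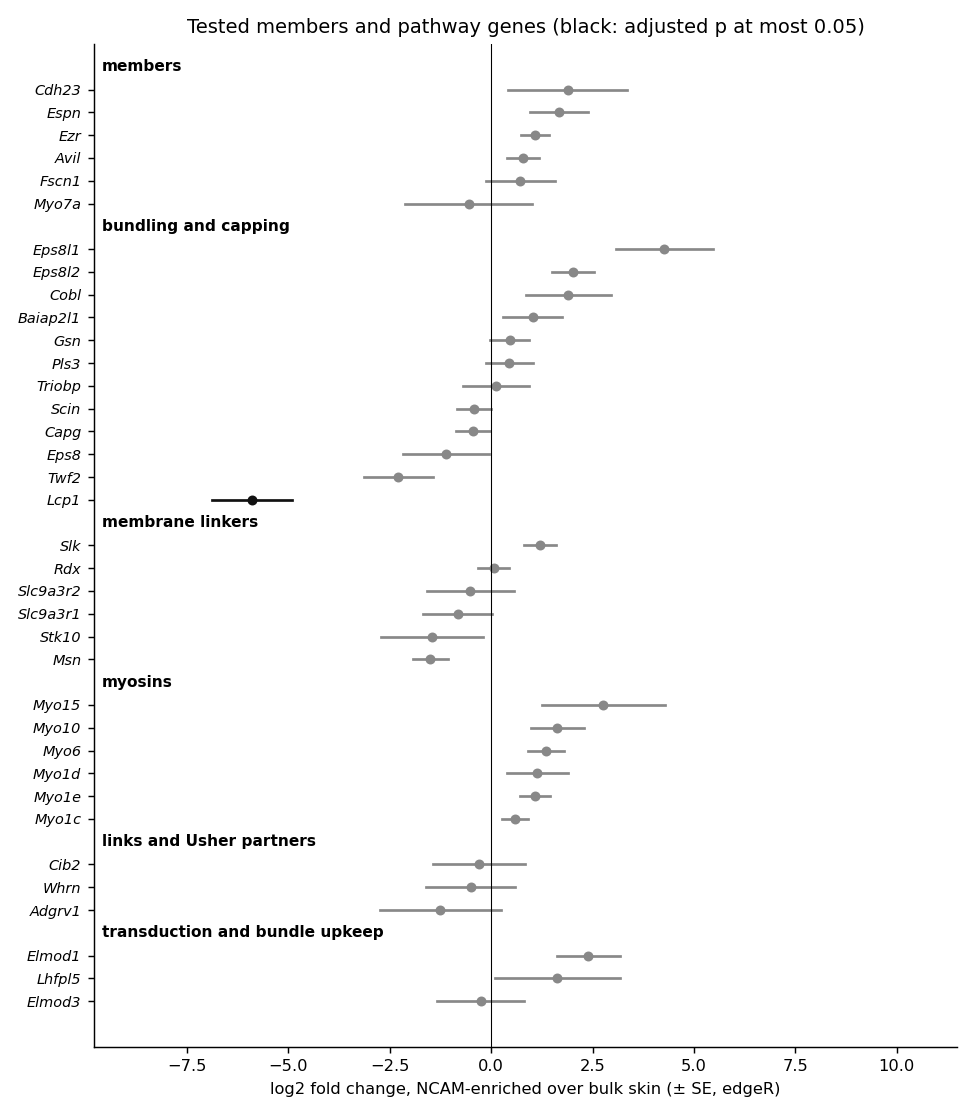
Log2 fold change with its SE (edgeR quasi-likelihood fit) of the 6 tested members and 30 tested pathway genes, grouped by role, with called genes in black. Lcp1 is the only gene called. The 6 myosins of the wider list lie above 0 in this fit and in every alternative in which each was tested, while the member Myo7a lies at -0.56 in this fit.

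Partners of the Usher genes in the links between stereocilia were sparse or did not pass the test. Pdzd7, a scaffold of ankle links, had 8, 0 and 8 reads against 0, and Ush1g, the partner of Myo7a and Ush1c, had 6 reads in NCAM-enriched library 1 only. Cib2, a calcium-binding partner of the transduction channel, had 41.3 against 51.1 RPKM (edgeR adjusted p = 0.926), and Whrn, the whirlin scaffold, 1.13 against 1.62 (adjusted p = 0.864). Cib2 had 0 reads in NCAM-enriched library 2, and it overlaps Sh2d7 in 15.8% of its exonic bases. Of 12 genes listed, 4 had no read in any library, 3 were tested and 0 were called. The 3 tested genes all lay below 0, with a median log2 fold change of -0.50. Besides Cib2 and Whrn this was Adgrv1, with 0, 1 and 27 reads against 39, 30 and 10 (log2 fold change -1.26, edgeR adjusted p = 0.718).

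Genes of the transduction channel and of bundle upkeep gave 3 tested genes and 0 calls. Elmod1, a regulator of small GTPases needed for hair cell bundles, had 69, 103 and 158 reads against 62, 33 and 15, or 12.1 against 2.29 RPKM, and was higher in every NCAM-enriched library (log2 fold change 2.40 ± 0.79 SE, edgeR adjusted p = 0.136, DESeq2 0.0215). Without a single library its log2 fold change ran from 1.95 (without bulk skin library 3) to 3.18 (without bulk skin library 1). None of these fits called it. Elmod3 had 5.61 against 6.80 RPKM (adjusted p = 0.929). The remaining tested gene, Lhfpl5, had 13, 25 and 66 reads against 42, 7 and 0 (log2 fold change 1.63, edgeR adjusted p = 0.634). Tmc1, a pore protein of the hair cell transduction channel, had 2, 15 and 0 reads against 0 in bulk skin and was not tested. Its 17 pooled reads gave a level 9.72 times that of 3 counts over bulk skin. This was 20.5 times without NCAM-enriched library 3, which had 0 reads, and 5.81 times without bulk skin library 2. The 17 reads were taken as exact, so these values are not lower limits. Leaving out NCAM-enriched library 2 left 2 reads. Clic5, which binds ezrin and radixin in stereocilia, had 21 reads, all in NCAM-enriched library 3. Tmie, also untested, had reads in both groups, with 0, 0 and 38 against 18, 2 and 9 in bulk skin.

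**Figure D5:**
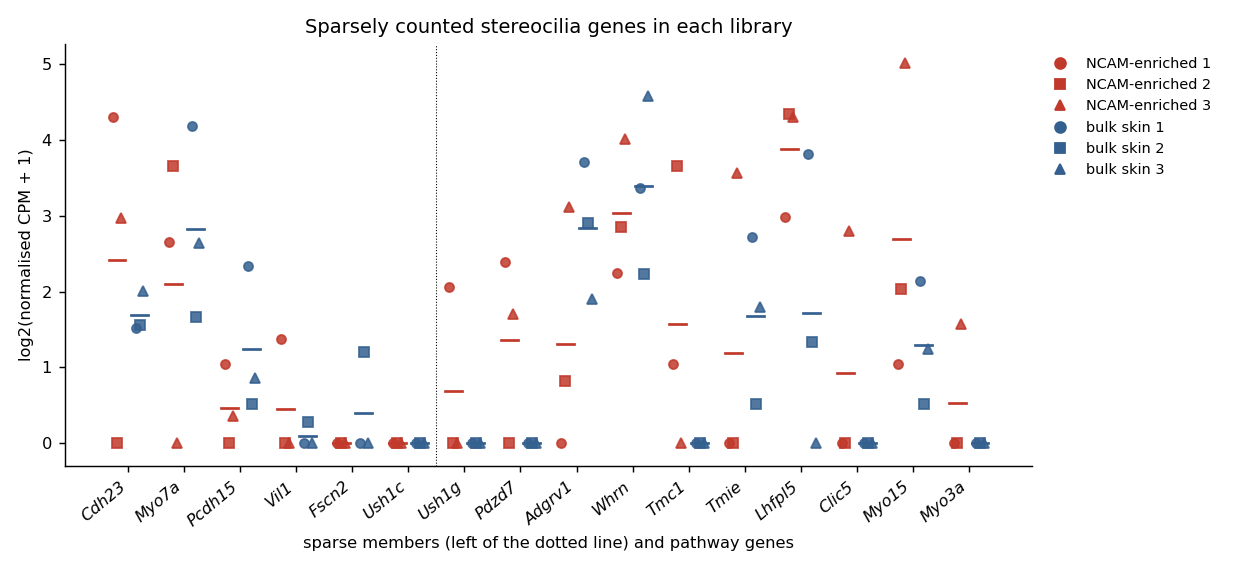
Level of the sparsely counted members (left of the dotted line) and of pathway genes in each library as log2(normalised CPM + 1), with a bar at the group mean on that scale (red NCAM-enriched, blue bulk skin). Ush1g, Clic5 and Myo3a have reads in 1 NCAM-enriched library each and none in bulk skin.

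The hair cell character of the group can be set against genes that define hair cells. Slc26a5, the motor protein of outer hair cells, and Ocm had 0 reads in all 6 libraries, and Otof, of hair cell synapses, had 9 reads in bulk skin library 3 only. Tmc1, the remaining gene of the hair cell list, went the other way, with 2, 15 and 0 reads in the NCAM-enriched libraries and 0 in bulk skin. Atoh1 had 187, 58 and 185 reads in the NCAM-enriched libraries and 23, 10 and 22 in bulk skin, and Pou4f3 had 300, 405 and 265 against 56, 96 and 74. Merkel cell markers summed to 1569 and 1674 CPM in NCAM-enriched libraries 1 and 2 and to 482 CPM in library 3. Within that group Espn, Fscn1 and Cdh23 were highest in library 1, Ezr and Myo7a in library 2, and Avil in library 3.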

How the data were processed

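The authors deposited raw read counts per gene for 54532 genes in 6 libraries, with no normalization. By their methods, adapter and polyA sequences were clipped, abundant sequences removed, reads aligned to GRCm38 with STAR and counted with featureCounts. Which annotation release and strand setting they used is not given in the sources used here, and Smart-seq2 does not mark strand. Positions, exonic lengths and overlaps came from GENCODE M21 (54495 gene IDs matched, 37 not), and promoters from RefSeq (all 10 members matched).

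Groups came from the labels. Counts were fitted across all genes in R 4.3.3 with edgeR 4.0.16 (filterByExpr, TMM, quasi-likelihood F-test, Benjamini-Hochberg over 13157 genes). SE is derived from the test, as the size of the fitted change over the root of F. CPM use TMM-scaled library sizes, and RPKM are CPM per kilobase of exon. DESeq2 1.42.0, limma-voom (limma 3.58.1), other factors and filters, a replicate block and fits without each library were alternatives. The scripts were tested on simulated data.

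Members and lists were chosen with earlier results of these data known. The text names all members, per pathway list the genes called and the 2 most abundant per length not called, fixed markers, the 5 genes most like the member with the smallest p, and genes said to be chosen after their values were seen. Untested pathway genes, Slc9a3r1, Adgrv1, Lhfpl5, Krt1, Lor, Trpm5, Ccr7, Slc26a5, Ocm and Otof are also outside that rule. Counting intervals and floors (3 counts) cover counting error only. Of the genes first listed for the pathway, 2 are not reported here. Replicate numbers were not treated as pairs. Figures were drawn with matplotlib 3.10.9.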

Additional observations from a re-analysis of the deposited data

How the results depend on the processing

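The alternatives were those listed in the processing account, and DESeq2 without the count filter (every gene with a read) was chosen after seeing the data. Of the members 0 were called higher and 0 lower, against 1 higher with DESeq2 (Ezr), and every other alternative called 0 in each direction. In edgeR without bulk skin library 2, 0 members had an unadjusted p under 0.05. Pathway genes called higher were 0, against 3 with DESeq2, 1 with limma-voom, 1 with edgeR without the filter, 3 with DESeq2 without it, and 0 to 2 without a single library. Pathway genes called lower were 1, against 3, 2, 2 and 3 in the same order, and 0 to 1 without a single library. Calls over all genes were 341, against 1589 with DESeq2, 1200 with limma-voom, 1510 with edgeR without the filter, 2353 with DESeq2 without it, 142 with the replicate block, and 13 to 1832 without a single library. The cause was not tested.

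The replicate block called 0 members. Deviations from the group mean correlated between libraries of the same number at 0.0231, 0.000232 and -0.00776, so the numbers were not taken as pairs. Over all genes the median log2 fold change moved from -0.07 to -0.37 with limma-voom, -0.36 with the block, 0.08 with edgeR without the filter and 0.17 with DESeq2 without it. Ezr, Avil, Espn and Cdh23 kept their sign in all 14 alternatives run on them. Signs turned for 6 of the other genes followed here. Without a single library, Fscn1 ran from -0.34 (without NCAM-enriched library 1) to 1.07, Myo7a from -1.68 to 0.51 (without bulk skin library 1), Cib2 from -1.16 to 0.27 and Elmod3 from -1.03 to 0.28 (both highest without NCAM-enriched library 2), Whrn from -1.33 to 0.33 (without bulk skin library 3) and Rdx from -0.26 (without NCAM-enriched library 2) to 0.27. Rdx was also -0.010 with limma-voom, -0.045 with upper quartile factors and -0.055 with edgeR without the filter. Pcdh15, Vil1 and Fscn2 had too few reads for the test over all genes, and their ratios carry counting error only.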
